A study of Mus musculus with 2 samples.

Results

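The Meis and Pbx genes encode TALE homeodomain proteins, transcription factors that bind DNA together with Hox proteins and sharpen their choice of sites. The 7 genes described here were Meis1, Meis2, Meis3, Pbx2, Pbx3, Pbx4 and Pknox1, and their accessibility was read from ATAC-seq, which marks open chromatin by where a transposase can cut and tag the DNA. A consensus interval was assigned to a gene if the transcription start site (TSS) nearest to it, among protein-coding genes, belonged to that gene, or if it overlapped the gene body. By this rule 179 of 119502 intervals (0.150%) were assigned, of which 8 overlapped a TSS and 171 did not. Meis1 took 93 of them, Meis2 45, Pbx3 19, Meis3 8, Pbx4 7, Pknox1 6 and Pbx2 1.

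Both libraries came from 1 group. The cells were neural progenitors made from Olig2-mKate2 mouse embryonic stem (ES) cells, in which the red fluorescent protein mKate2 reports Olig2, a gene of motor neuron progenitors (pMN). The cells had been grown on mouse embryo fibroblast feeders, received bFGF with LGK and then bFGF with CHIR99021, SB-431542 and DMH1, and were given 100 nM retinoic acid (RA) and 100 nM SAG, an agonist of Sonic hedgehog signalling, from day 3 to day 5. Live mKate2-positive cells were sorted at day 5, and 50000 cells entered each transposition. The sort keeps every cell that carries the reporter protein, which per the study takes in young motor neurons and cells that also make NKX2.2, and the line is 1 reporter line with no untreated or unsorted sample beside it, so no comparison between conditions was made. The labels do not say whether the 2 replicates were separate differentiations, and the spread between them may be technical.

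Hox proteins give cells of the neural tube their position along the head-to-tail axis and later divide motor neurons into columns and pools. Pbx proteins are their classical partners on DNA. Meis proteins and the related Pknox1, also called Prep1, bind Pbx outside the homeodomain, hold it in the nucleus and can form a complex of Hox, Pbx and Meis on 1 element. Retinoic acid, which posteriorises neural tissue, induces Meis genes and the Hox genes at the 3′ ends of the clusters.

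The libraries held 31876165 and 31672240 counts in intervals, and the 179 intervals held 50486 and 50548 of these. Marker promoters were examined to check the label. Of all 21842 protein-coding genes, 14623 had a TSS interval, and lists of 4 are too short to be told from that share by count. All 4 progenitor genes examined (Olig2, Nkx6-1, Pax6 and Sox2) had a TSS interval, at 946, 1452, 613 and 862 normalised counts per kb. For pluripotent cells, 2 of 4 did, and Nanog and Pou5f1 had none. Among fibroblast markers, 3 of 4 did, with a range of 123 to 277 and none at Col1a1. For motor neurons, 3 of 4 had one (Isl1 1087, Mnx1 557 and Lhx3 376). For muscle and blood, Myod1 was the single case of 4, at 172. Accessibility is not expression, and in bulk libraries fewer cells with an open site and fewer cuts per cell cannot be told apart.

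The elements that stood out in these loci are shown first. Stretches were taken from the densest non-TSS intervals within a gene's own body that held neither untranslated nor coding sequence. For Meis1 this interval lay in an intron 35.9 kb from the nearest Meis1 TSS. The middle 300 bases of it are chr11:18982364-18982663, and none of the 8 motifs searched (named further on) occurs there. The matching stretch for Meis2 is chr2:115923579-115923878, in an intron 140 kb from a Meis2 TSS, with a Sox-type CATTGTT on the minus strand in capitals. For Pbx3 the stretch is the whole of chr2:34368462-34368702, an exon of a non-coding Pbx3 transcript 2.45 kb inside the gene, with the Pbx-Hox motif TGATTNAT on the minus strand in capitals. The second Pbx3 element, chr2:34249675-34249974, lies in an intron 121 kb from the TSS and holds the Sox-type CATTGTT, the Meis half-site TGACAG on each strand and the homeodomain core TAATTA, in capitals. All are from mm10, plus strand, 5′ to 3′.
Meis1 intron: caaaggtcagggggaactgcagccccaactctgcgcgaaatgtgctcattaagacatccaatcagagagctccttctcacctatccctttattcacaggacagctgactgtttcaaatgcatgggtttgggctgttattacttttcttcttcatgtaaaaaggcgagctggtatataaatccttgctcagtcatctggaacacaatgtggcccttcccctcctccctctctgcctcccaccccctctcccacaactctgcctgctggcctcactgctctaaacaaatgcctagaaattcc
Meis2 intron: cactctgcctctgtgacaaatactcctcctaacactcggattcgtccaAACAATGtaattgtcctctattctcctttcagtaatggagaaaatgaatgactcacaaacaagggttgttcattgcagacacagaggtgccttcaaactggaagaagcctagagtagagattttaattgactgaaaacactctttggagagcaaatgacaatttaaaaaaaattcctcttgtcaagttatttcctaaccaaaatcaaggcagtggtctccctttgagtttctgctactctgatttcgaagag
Pbx3 near the TSS: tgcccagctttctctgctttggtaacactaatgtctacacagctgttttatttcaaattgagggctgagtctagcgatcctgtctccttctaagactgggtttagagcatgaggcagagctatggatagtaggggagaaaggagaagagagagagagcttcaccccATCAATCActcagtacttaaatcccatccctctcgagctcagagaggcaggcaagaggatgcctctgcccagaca
Pbx3 intron: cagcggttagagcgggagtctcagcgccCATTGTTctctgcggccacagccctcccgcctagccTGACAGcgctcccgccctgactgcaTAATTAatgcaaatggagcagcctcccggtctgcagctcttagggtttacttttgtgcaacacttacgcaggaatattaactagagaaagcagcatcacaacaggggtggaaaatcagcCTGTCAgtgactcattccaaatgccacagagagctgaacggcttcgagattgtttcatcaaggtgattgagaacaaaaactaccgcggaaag

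All 7 genes had an accessible promoter, as did 14623 of all 21842 protein-coding genes, and the levels of the 7 spanned 6.08-fold. Promoter density is the normalised count of a gene's TSS intervals per kb of interval, and the percentile is the share of the 14623 genes with a TSS interval that lay below it. Pbx4, a Pbx gene known mainly from testis, had the most accessible promoter of the 7. It had 2726 counts in replicate 1 and 2704 in replicate 2 over 903 bp, a density of 3007 ± 19.0 (SD, n = 2) and percentile 99.4. Meis3 followed with 1621 and 1672 counts and a density of 1583 ± 33.8 (SD, n = 2), percentile 86.1. Pbx3 had 3053 and 3029 counts over a longer interval, 2211 bp, and a density of 1375 ± 8.47 (SD, n = 2), percentile 79.0.

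The other promoters were nearer the middle of the genome-wide range. Pknox1 had 2232 and 2040 counts and a density of 959 ± 61.5 (SD, n = 2), percentile 57.4. Meis1, a cofactor of posterior as well as anterior Hox proteins, had 2506 and 2347 counts and a density of 927 ± 43.5 (SD, n = 2), percentile 55.1. Meis2 had 2 TSS intervals, 2646 and 2553 counts in all and a density of 764 ± 19.8 (SD, n = 2), percentile 43.7. Pbx2, a broadly expressed Pbx gene, was lowest with 1298 and 1160 counts and a density of 494 ± 39.5 (SD, n = 2), percentile 25.6.

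Between neighbours in this order, replicate values overlapped for Pknox1 and Meis1 alone, so these could not be ranked. The median of the 7 genes was 959 and that of all genes with a TSS interval was 853, and 5 of the 7 lay above it. The order depended on interval length. By counts in place of density Pbx3 came first, at percentile 94.4, then Pbx4 at 91.4, Meis2 at 90.1 and Meis1 at 87.8, since the TSS intervals of Meis1 and Meis2 covered 2619 and 3401 bp against 1283 bp for the median gene. Pbx2 was lowest on either scale.

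**Figure D1:**
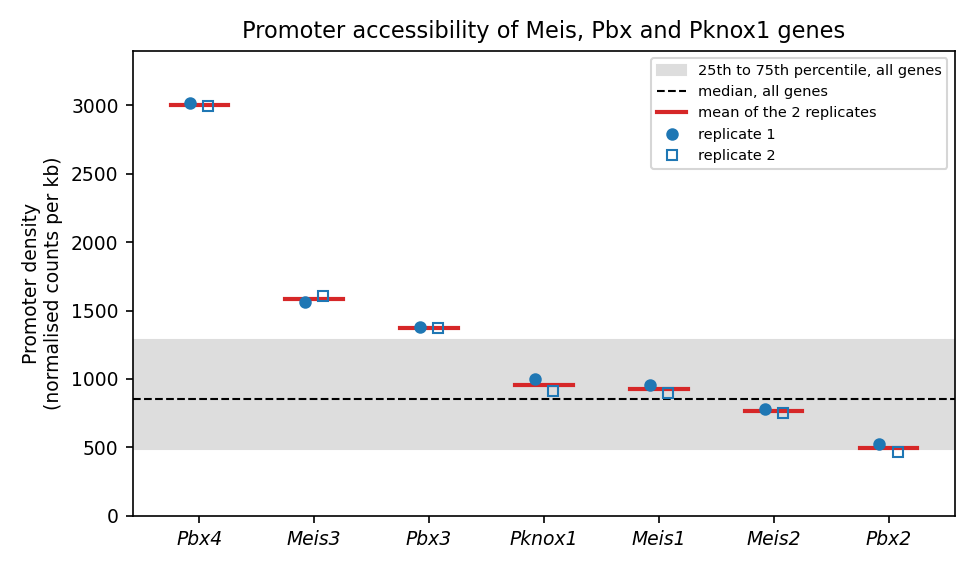
Promoter density (normalised counts per kb of TSS interval, y axis) of each gene (x axis), with a filled circle for replicate 1, an open square for replicate 2 and a bar for their mean. The dashed line is the median gene (853) and the grey band the 25th to 75th percentile of genes with a TSS interval (486 to 1285). Pbx4, Meis3 and Pbx3 lie above the band, and the means of the other 4 lie within it, with replicate 2 of Pbx2 (466) below.

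Chromosome 8, which carries Pbx4, was high as a whole. Its 781 genes with a TSS interval had a median promoter density of 1231, which was 1.44 times the median on the other autosomes. Pbx4 stood at 2.44 times the chromosome's own median and at percentile 95.8 of its genes. Divided by the chromosome's ratio it fell at percentile 95.1 of all genes. The part of the chromosome in the Pbx4 value was not tested.

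The promoter windows of RefSeq (GRCm38.p6, 250 bases before to 50 after a start) were held for Meis1, Meis2, Meis3, Pbx2 and Pbx4, and Pbx3 and Pknox1 are named only. None of the 8 motifs occurred in these 5 windows, which are too few to show an absence. The Meis2 window overlapped the smaller of its TSS intervals and not the larger. In windows of the 8 TSS intervals themselves, TGACAG, TGATTNAT and TAATTA each occurred in 1. Over all TSS intervals these were found in 14.4%, 0.948% and 1.56%. TGACAG, the half-site of Meis and Pknox proteins, occurred in 19.2% of all 32851 promoters and the other 7 motifs in 5.29% or fewer. The stretches without untranslated or coding sequence are given for the promoter with the highest density, for Meis1, and for the one with the lowest, each on the strand of the gene: chr8:69832374-69832490, chr11:19018986-19019219 (minus strand) and chr17:34592009-34592258. They differ in base composition, and the 300-base windows had 59.3% G and C for Pbx4, 58.3% for Meis1 and 76% for Pbx2, with 19, 15 and 29 CG pairs against a median of 7 in all promoters.
Pbx4: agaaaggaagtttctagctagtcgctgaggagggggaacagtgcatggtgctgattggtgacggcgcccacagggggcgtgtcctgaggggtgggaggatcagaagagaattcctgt
Meis1: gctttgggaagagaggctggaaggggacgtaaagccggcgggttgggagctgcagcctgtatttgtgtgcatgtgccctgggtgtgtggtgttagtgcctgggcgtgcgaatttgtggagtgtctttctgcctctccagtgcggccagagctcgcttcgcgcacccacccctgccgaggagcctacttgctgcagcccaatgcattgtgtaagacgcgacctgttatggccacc
Pbx2: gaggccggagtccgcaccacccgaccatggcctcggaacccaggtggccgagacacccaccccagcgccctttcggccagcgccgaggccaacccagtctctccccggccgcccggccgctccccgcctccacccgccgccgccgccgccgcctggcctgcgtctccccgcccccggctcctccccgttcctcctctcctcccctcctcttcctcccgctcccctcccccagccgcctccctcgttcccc

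Some of these promoters are shared with other gene records, and their counts cannot be divided between them. The Pbx2 interval, chr17:34591560-34594045, also covered a UTR of Gpsm3. The larger Meis2 interval, chr2:116065564-116068075, covered exons of the lincRNAs 2700033N17Rik and G630016G05Rik, and the Pknox1 interval, chr17:31563838-31566065, covered an antisense gene and the miRNA gene Gm24970. The intervals of Meis1 (chr11:19018586-19021204), Meis3 (chr7:16174789-16175828), Pbx3 (chr2:34371212-34373422) and Pbx4 (chr8:69832245-69833147) covered exons of their own gene alone.

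The loci around the promoters were of different sizes. Meis1 ranked 16 of 21842 genes by number of intervals and Meis2 ranked 201, against a median of 3 per gene. The distances to the nearest protein-coding genes differed as much. Meis1 has 926 kb to Etaa1 on one side and 905 kb to Spred2 on the other, and Meis2 has 84.3 kb to BC052040 and 813 kb to Tmco5. Pbx2 is overlapped by 1 other gene, and of those that do not overlap it the nearest are Notch4 at 2.76 kb and Ager at 0.462 kb. When the length of genome nearer to a gene than to any other was joined with its own gene record as its territory, Meis1 had 985 kb and 9.44 intervals per 100 kb, percentile 69.1, and Meis2 had 649 kb and 6.93, percentile 55.7. The median gene had 6.06 per 100 kb. The highest values per 100 kb were in the short territories of Meis3 (17.4), Pbx4 (15.6) and Pbx2 (15.0), and Pbx3 (7.30) and Pknox1 (8.94) lay in between. The number of intervals followed the length of territory in order, Pknox1 excepted, and no gene of the 7 fell below the median gene per unit length.

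**Figure D2:**
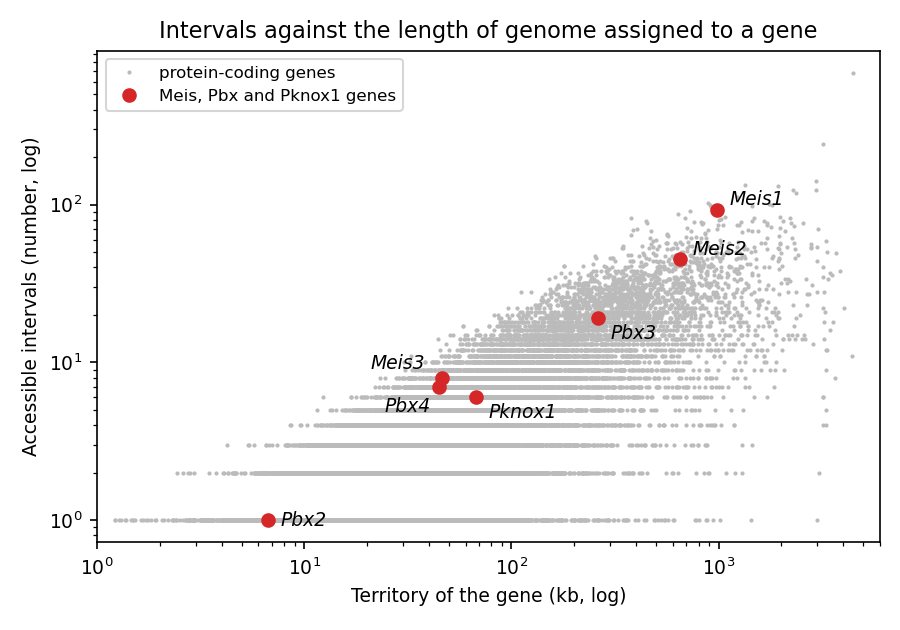
Number of accessible intervals (y axis, log) against territory in kb (x axis, log) for protein-coding genes with at least 1 interval (grey points) and the 7 genes described here (red points). Meis1 (93 intervals, 985 kb) and Meis2 (45 intervals, 649 kb) lie at the upper right and Pbx2 (1 interval, 6.65 kb) at the lower left.

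The share of a locus's counts that fell in its TSS intervals separated the 7 genes without overlap between replicates. It was 11.5% ± 0.614 for Meis1, 19.4% ± 0.650 for Meis2, 44.0% ± 1.37 for Meis3, 54.6% ± 0.984 for Pbx3, 82.7% ± 0.363 for Pknox1 and 91.9% ± 0.375 for Pbx4 (SD, n = 2 each). Pbx2 had no other interval. Over the 179 intervals together the share was 31.3% ± 0.835 (SD, n = 2), against 55.0% over all intervals. The counts assigned to Meis1 and Meis2 therefore lay mostly away from their promoters and those assigned to Pknox1 and Pbx4 mostly at them. Assignment by the nearest TSS does not show that an interval acts on that gene. With gene bodies alone the share over the 7 genes together was 49.9%.

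**Figure D3:**
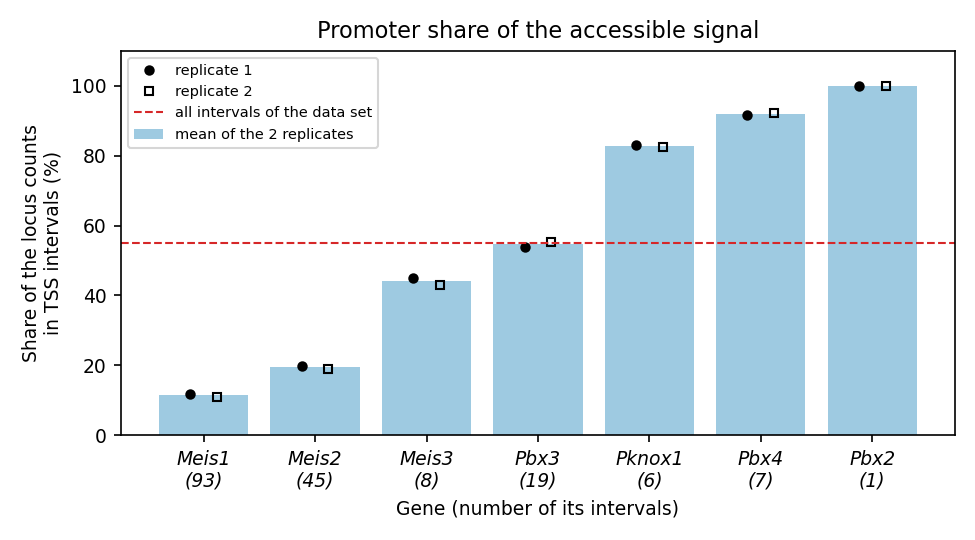
Share of each locus's normalised counts that lay in TSS intervals (y axis, percent), with bars for the mean of 2 replicates, filled circles for replicate 1 and open squares for replicate 2, and the number of intervals of each gene in parentheses. The dashed line is the share over all intervals (55.0%). Shares run from 11.5% for Meis1 to 100% for Pbx2.

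Of the 171 non-TSS intervals, 74 were intronic (43.3%), 18 exonic (10.5%) and 79 intergenic (46.2%), and the shares over all non-TSS intervals were 41.0%, 10.9% and 48.1%. Their median density was 143 ± 4.85 and that of all non-TSS intervals 124 ± 2.01 (SD, n = 2). The upper quartile was 321 against 211. A mean normalised count over 100 was reached by 80 of the 179 (44.7%), where the background over all intervals was 38.8%. Among non-TSS intervals the shares were 42.1% and 31.2%. A density above the 95th percentile of all non-TSS intervals (618) was found for 24 of the 171 (14.0%), of which 14 belonged to Meis1, 7 to Meis2, 2 to Pbx3 and 1 to Meis3. The ratio of median TSS to median non-TSS density was 6.61 ± 0.591, and over all intervals it was 6.43 ± 0.247 (SD, n = 2).

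**Figure D4:**
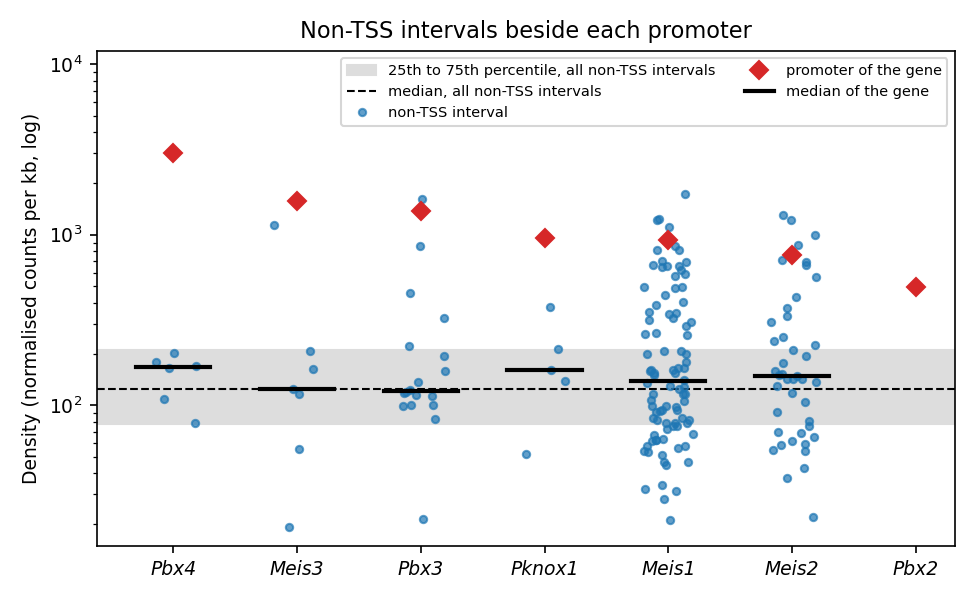
Density of every non-TSS interval (blue points, y axis, normalised counts per kb, log) by gene, with a black bar for the gene's median, a red diamond for its promoter, a dashed line for the median of all non-TSS intervals (124) and a grey band for their quartiles (77.5 to 211). Points above the diamond occur for Meis1 (4), Meis2 (4) and Pbx3 (1) only.

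The 92 non-TSS intervals of Meis1 ran from -442 kb (upstream) to 527 kb (downstream) of its start, and 59 lay beyond 100 kb. Of these 92, 31 were intronic with a median density of 83.7, 6 exonic with a median of 610 and 55 intergenic with a median of 159. The densest, chr11:18885488-18886285, covered a coding exon and a UTR of Meis1 near the far end of the gene and had 1385 and 1373 counts and a density of 1728 ± 11.6 (SD, n = 2). Its density exceeded that of the Meis1 promoter 132 kb away. The intronic interval whose centre is printed above, chr11:18982195-18982832, had 796 and 778 counts and a density of 1234 ± 20.7 (SD, n = 2). Another, chr11:18889203-18889419, lay within the gene over an exon of the unclassified transcript 2900018N21Rik and had 275 and 253 counts, at 1217 ± 72.4 (SD, n = 2). The most remote of the strong intervals, chr11:18621484-18622571, lay 396 kb downstream of the Meis1 start in an intron of the lincRNA Gm12023 and had 1204 and 1205 counts, a density of 1107. Each of these 4 was above the Meis1 promoter in density in both replicates, and below its 2506 and 2347 counts over 2619 bp.

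Meis2, which in mice is needed for cranial neural crest and heart development, showed a similar layout on a smaller scale. Its 43 non-TSS intervals ran from -398 kb to 218 kb, and 23 were intronic, 5 exonic and 15 intergenic. The densest, chr2:115855928-115856136, lay beyond the 3′ end of the gene with 277 and 267 counts, at 1301 ± 34.6 (SD, n = 2). The intronic interval chr2:115923332-115924124 had 904 and 1019 counts and a density of 1212 ± 102 (SD, n = 2). The widest of the strong ones, chr2:115859127-115861027, covered 1901 bp beyond the 3′ end with 1844 and 1941 counts, at 996 ± 35.5 (SD, n = 2). The last interval above the Meis2 promoter in density, chr2:116075495-116076288, lay upstream at -9.66 kb, with 677 and 709 counts and a density of 873 ± 28.0 (SD, n = 2). That holds for the 2 TSS intervals pooled. Against the larger TSS interval alone (849 ± 6.40, SD, n = 2) it was not higher in replicate 1, where both had 853. In counts all 4 lay below the 2646 and 2553 of the pooled TSS intervals.

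Strong intervals of both genes gathered at their 3′ ends, a feature noticed in the values and then measured. Within 25 kb of the end of the Meis1 record there were 12 intervals with a median density of 577, and in the rest of the gene body 30 with a median of 82.9. The ratio of these medians was 6.96 ± 0.638 (SD, n = 2). For Meis2 there were 9 intervals with a median of 433 against 24 with 143, a ratio of 3.19 ± 0.406 (SD, n = 2). Over 729 genes of at least 100 kb with at least 3 intervals in each zone the median ratio was 0.989 and the 95th percentile 3.27, and Meis1 stood at percentile 99.3 and Meis2 at 94.7. Of the 12 Meis1 intervals, 5 lay beyond the end, with densities of 259 to 817, and 7 within the gene, at 117 to 1728. Of the 9 at Meis2, 5 lay beyond it, at 58.2 to 1301, and 4 within, at 59.1 to 688. Those above the 95th percentile of all non-TSS intervals (618) numbered 3 beyond and 3 within for Meis1, and 2 and 2 for Meis2. The description was chosen for these genes with their values known and carries no test.

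**Figure D5:**
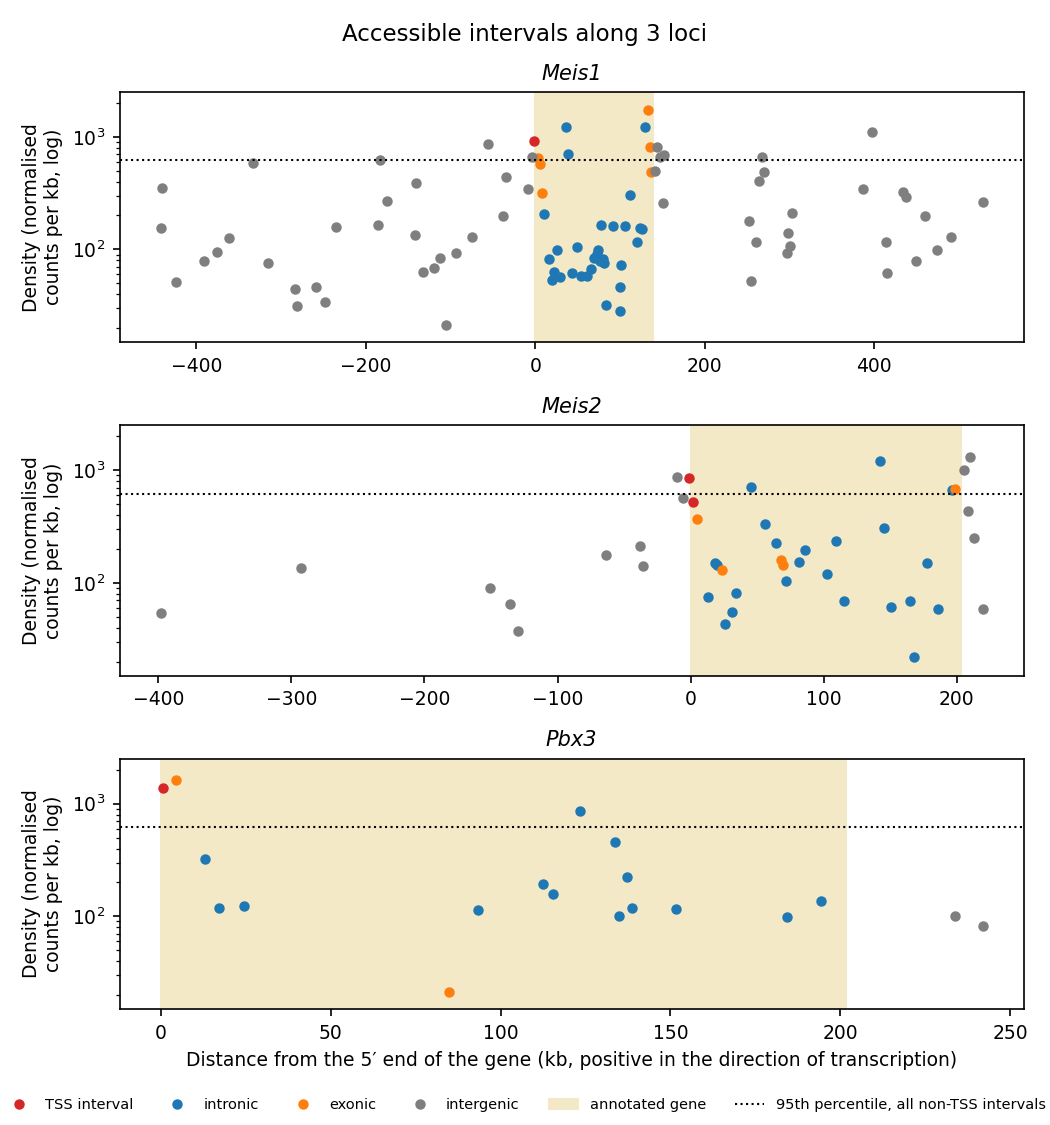
Density of each interval (y axis, normalised counts per kb, log) against its distance from the 5′ end of the gene record in kb (x axis, positive in the direction of transcription) for Meis1, Meis2 and Pbx3, coloured by class, with the annotated gene shaded and a dotted line at the 95th percentile of all non-TSS intervals (618). In Meis1 and Meis2 points above the line gather at both ends of the shaded gene, with others in introns and, for Meis1, far outside it, and in Pbx3 they are 1 beside the promoter and 1 in an intron.

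Pbx3, a Pbx gene with strong expression in the developing nervous system, had 18 non-TSS intervals, of which 14 were intronic, 2 exonic and 2 intergenic. The interval near its TSS printed above had 417 and 366 counts over 241 bp and a density of 1625 ± 151 (SD, n = 2). Its density exceeded that of the Pbx3 promoter in both replicates, but its counts were below the promoter's 3053 and 3029 over 2211 bp. The intronic interval chr2:34249313-34250336 had 897 and 865 counts, at 860 ± 22.6 (SD, n = 2). It was the second and last Pbx3 interval above the 95th percentile. The intronic interval chr2:34239409-34239764 had 142 and 182 counts and a density of 455 ± 79.2 (SD, n = 2).

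The short loci had few strong elements. Meis3 had 7 non-TSS intervals, and 1 of them, chr7:16172121-16173575, lay upstream at -1.51 kb from the TSS with 1582 and 1758 counts, at 1148 ± 84.9 (SD, n = 2). The next were chr7:16183643-16183989, over a coding exon and UTR of Meis3, at 209 ± 59.0 (SD, n = 2), and chr7:16153378-16153984, at 162 ± 1.26 (SD, n = 2), in an intron of Slc8a2. Pbx4 had 6, all inside its gene, of which 4 were nearer to the TSS of another gene. Their densities ran from 78.5 to 202, and the 3 densest were 202 ± 45.8 (chr8:69847772-69847972, 47 and 34 counts), 179 ± 16.0 (chr8:69860906-69861168, 44 and 50 counts) and 169 ± 6.02 (chr8:69849092-69849322, 38 and 40 counts; SD, n = 2 each). Pknox1 had 5, of which 4 were upstream of the gene and 1 in its intron, and the densest was chr17:31557513-31557808, over an exon of the lincRNA 4833413E03Rik, with 118 and 105 counts, at 377 ± 31.3 (SD, n = 2). The next 2, chr17:31555177-31555924 and chr17:31549414-31550120, had 213 ± 31.3 and 161 ± 8.91 (SD, n = 2). None of the Pbx4 or Pknox1 intervals reached the 95th percentile.

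Motifs were counted on both strands in 300-base windows at the middle of the non-TSS intervals, to describe the sequence of these elements. A match says only that the letters are there. The Meis and Pknox half-site TGACAG occurred in 49 of 171 windows (28.7%, against 25.9% of all non-TSS windows), 24 of them at Meis1 and 12 at Meis2. The Pbx-Hox motif TGATTNAT occurred in 12 (7.02% against 7.16%) and the homeodomain core TAATTA in 12 (7.02% against 7.79%), 10 of these at Meis1 and 2 at Pbx3. The joint Pbx-Meis motif TGATTGACA occurred in 0 of 171 (95% Wilson interval 0 to 2.20%), and in 0.421% of all non-TSS windows. CATTGTT, the core of Sox sites, occurred in 19 (11.1% against 8.48%), and the E-box CATATG in 8 (4.68% against 5.63%). The Gli motif GACCACCCA occurred in 2 windows (1.17% against 0.497%), 1 at Meis2 and 1 at Pbx3. In the 72 windows with a mean normalised count over 100, GACCACCCA occurred in 0, against 0.589% of all such windows, too rare to show an absence. In the same 72, CATTGTT occurred in 12 (16.7% against 8.24%) and TGACAG in 23 (31.9% against 24.0%). TGATTNAT (6.94% against 6.91%) and TAATTA (6.94% against 7.53%) were near their backgrounds, and CATATG was at 2.78% against 4.47%. The backgrounds were not matched for base composition. The TGATTGACA motif contains TGACA, and TGACAG can overlap it.

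Retinoic acid receptors bind direct repeats spaced by 5 bases (DR5), here AGGTCA or AGTTCA repeated on 1 strand. A DR5 occurred in 2 of 171 windows (1.17%, 95% Wilson interval 0.321 to 4.16%), both intergenic at Meis1, and in 0.149% of all non-TSS windows. They are shown with the repeats and the spacer in capitals, from mm10, plus strand: chr11:18603233-18603293, 415 kb downstream of the Meis1 start, and chr11:19302813-19302873, at -284 kb. Both lay in weak intervals. The first interval had 12 counts in replicate 1 and 22 in replicate 2, a density of 62.3 ± 25.9, and the second had 9 and 22, at 44.7 ± 26.5 (SD, n = 2). Each was below the median of all non-TSS intervals. No DR5 was found among the 72 windows with a mean normalised count over 100.
Meis1 downstream DR5: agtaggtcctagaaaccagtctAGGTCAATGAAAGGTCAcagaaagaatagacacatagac
Meis1 upstream DR5: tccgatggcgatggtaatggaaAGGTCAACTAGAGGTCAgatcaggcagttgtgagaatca

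Replicates were then compared at these intervals. The two-sided exact binomial test with Benjamini-Hochberg adjustment over all intervals called 0 of the 179 at an adjusted p under 0.01, where the background was 0%, and 26 of the 179 (14.5%) had an unadjusted p under 0.05 against 8.39% of all intervals. These last shares were not matched for depth, on which an exact p depends, and the 179 reached a mean normalised count over 100 more often (44.7% against 38.8%). The smallest adjusted p of this exact test was 0.298, at the Meis3 interval upstream of the TSS. Of the 80 whose mean normalised count was over 100, 0 were over 1.5-fold apart, against a background of 0.108%, and the SD of their log2 ratio of replicate 2 to replicate 1 was 0.16 against 0.14. The largest differences were in chr11:18892597-18893363, an intron of Meis1, with 95 and 136 counts (log2 ratio 0.52), chr11:19380360-19381223, at -361 kb from Meis1, with 94 and 122 (0.37), and the intronic Pbx3 interval at chr2:34239409-34239764 (0.36). At the TSS intervals 7 of 8 were higher in replicate 1, Meis3 being the exception, and the median TSS interval of the whole set was also higher in replicate 1, at 810 against 785. No interval of the 179 was without counts in either library, and the lowest count was 3.

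Genes of the same class and genes that act with Hox proteins were set beside these. The background for having a TSS interval was 14623 of 21842 genes. The other TALE genes examined (Tgif1, Tgif2, Mkx and Irx1 to Irx6) had a TSS interval in 9 of 9 cases, with a median promoter density of 798, from 132 ± 14.9 at Irx4 to 2135 ± 5.07 at Irx5 (SD, n = 2), and 3 of the 9 lay above the median gene. Irx3, Irx5 and Irx6 are on chromosome 8, as is Pbx4. Hox genes, the partners of the cofactors, had a TSS interval in 37 of 39 cases, none for Hoxc5 and Hoxc12, with a median of 443. The lowest was Hoxd12, at 79.4 ± 7.02 (SD, n = 2), and 2 of the 37 lay above the median gene. By paralogue group the medians were 689 in group 2, 562 in group 3, 519 in group 4, 469 in group 5, 399 in group 6, 526 in group 7, 517 in group 8, 292 in group 9, 274 in group 10, 190 in group 11, 79.4 in group 12 and 299 in group 13. Each rested on 1 to 4 genes, and the groups did not fall in a steady order, since groups 7 and 8 lay above groups 5 and 6. Genes that carry out Hox functions in motor neurons (Foxp1, Aldh1a2, Pou3f1, Etv4 and Lhx1) had a TSS interval in 5 of 5 cases, with a median of 619 and none above the median gene. The median of the cofactors, 959, lay above the medians of these 3 lists. The ranges of single genes overlapped, and no test was made.

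Likeness between loci was measured as the distance over promoter density, number of intervals and median non-TSS density, each on a standardised log2 scale, to the 44 genes of these lists that had all of them. Meis1 was nearest to Foxp1, a Hox-dependent gene of limb-level motor neurons, at a distance of 0.635. Foxp1 had 100 intervals, a promoter density of 653 and a median non-TSS density of 103, and Meis1 had 93, 927 and 138. The nearest gene was Irx3 for Meis2 (0.717), Etv4 for Meis3 (0.817), Irx2 for Pbx3 (0.576) and Pou3f1 for Pknox1 (0.572). Pbx2 had no non-TSS interval and no distance.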

How the data were processed

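The deposited values were raw fragment counts in consensus intervals for sorted live cells (1 group, 2 replicates). Per the file header, featureCounts 2.0.1 counted read pairs in every interval they overlapped by a fraction of at least 0.2, so a fragment can enter 2 intervals. The study's methods give alignment to mm10 in the nf-core ATAC-seq pipeline and MACS peaks at a false discovery rate of 0.00001 with at least 2 replicates. The submitters' processing notes name mm10 and DESeq2. The table holds 3 further columns of per-sample values of other libraries, which were left out throughout but had a part in the interval set.

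Normalisation was by size factors from DESeq2 (1.42.0), and density by interval length. The GENCODE annotation of the same assembly gave genes. An interval was exonic, intronic or intergenic by protein-coding gene records. For each interval the split of its counts between replicates was set against the split of the size factors (exact binomial test, two-sided, Benjamini-Hochberg over 119502 intervals, limit 0.01), a comparison of libraries and not of conditions. An SD is over 2 replicates. Fragments carried no molecular identifiers, so the exact binomial test of counts covers counting error only. Wilson intervals treat the 171 windows as independent, although 92 came from the Meis1 locus and 43 from that of Meis2.

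The text names the 7 genes, their TSS intervals, the 3 densest non-TSS intervals of each, the 3 largest replicate differences with a mean normalised count over 100, the ends of the ranges of the lists and the most alike gene. Some items that met this rule were left out of the text. Intervals above their own promoter in density, and those near 3′ ends, were named after their values were seen. The genes, lists and tests were chosen with earlier results of these data known. Standardised logs used a pseudocount of 1. Alternatives covered normalisation, TSS definition, assignment, filters, windows and each replicate. Python 3.11.15, numpy 2.4.6, pandas 2.3.3, scipy 1.17.1, statsmodels 0.14.6, edgeR 4.0.16 and R 4.3.3 were used.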

Additional observations from a re-analysis of the deposited data

How the results depend on the processing

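No paired analysis was possible because the labels gave 1 group. With edgeR TMM factors or total counts the values for the 7 genes together stayed within the spread between replicates, and the exact binomial test called 0 of the 179 intervals under every normalisation and with a mean normalised count of at least 10 (over all intervals, TMM called 6). Counted per interval, the median promoter value was 2136, the median non-TSS value 73.5 and their ratio 29.2. With gene bodies alone there were 97 intervals, a median non-TSS density of 130, a ratio of 7.23 and a TSS share of 49.9%. Intervals with a mean normalised count over 100 gave a median non-TSS density of 366 and a ratio of 2.57. With 1 TSS a gene the ratio was 8.07 and the TSS share 27.9%, and with the starts of all transcripts of protein-coding genes the share was 33.3%. Leaving out 1 replicate gave a median promoter density of 915 to 1002, a median non-TSS density of 139 to 146, a ratio of 6.19 to 7.03 and a TSS share of 30.7 to 31.9%. The Pbx-Meis motif share stayed at 0% in 500-base windows, whole intervals and intervals over 100, against 0.684%, 0.795% and 0.386% over all non-TSS intervals. The last setting is a subset of the main windows and could only be 0, and the motif is too rare for the others to show an absence. Of 84 further alternatives for single genes, motifs and 3′ ends, 62 stayed within the spread between replicates, or the Wilson interval for motifs, and 22 moved. The 62 include values with 1 replicate left out, which lie within that spread by its definition and carry no information on stability. The 3′ ratio, with limits chosen after seeing the data, was 8.57 for Meis1 and 5.06 for Meis2 within 10 kb, and 3.41 and 1.77 within 50 kb, at percentiles 97.6 and 86.3. For Meis2 the promoter density was 556 with the starts of all transcripts and 849 with 1 TSS. The 22 that moved include promoter values counted per interval, which is a change of unit. They also include motif shares in longer windows, where the shares over all non-TSS intervals rose as well. For TGACAG that background rose from 25.9% to 37.9% in 500-base windows. The cause of the other shifts was not tested. Depth limits the weak intervals most, and those with a DR5 rest on 9 to 22 counts in a library.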
